A study of Mus musculus with 9 samples.

Results

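Genes that lymph node sinus macrophages are known to express were followed in RNA from mouse lymph nodes, as 8 genes of the 37801 in the table of expression values: *Timd4*, *Marco*, *Siglec1*, *Cd163*, *Vsig4*, *Cd5l*, *Mrc1* and *Msr1*. Their rows were found by symbol, and each gene had 1 row. The genes themselves were chosen with earlier results of these data known. The 9 libraries fell into 3 groups of 3: *Tyr-NrasQ61K* MHCII-KO, *Tyr-NrasQ61K* and wild type (WT). In both *NrasQ61K* groups the activated *Nras* gene is driven by the tyrosinase promoter, which acts in pigment cells, and the strain is given as an FVB/NJ cross. The MHCII-KO libraries are also labelled Cre-positive and MHC class II-negative, without saying which Cre or which class II gene was used, and the *Tyr-NrasQ61K* libraries are labelled Cre-negative with intact MHC class II. WT mice are given as FVB/NJ, without the transgene and with intact MHC class II, and the treatment notes describe wild-type controls as albino littermates. The sources used here give no ages. The source label reads nevus melanocytes whereas the study describes RNA from whole lymph nodes, and genes of B and T cells were high in every library. Whether the libraries of a group came from different animals is not labelled, and the p-values then measure only how far these libraries spread, which may be technical.

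Lymph enters a node through sinuses lined by macrophages, which trap particles, microbes and dying cells before lymph reaches the lymphocytes. The subcapsular sinus macrophages carry CD169, the product of *Siglec1*, and the medullary sinus macrophages also carry scavenger and lectin receptors. TIM-4 (*Timd4*) binds phosphatidylserine on apoptotic cells. MARCO and the product of *Msr1* are class A scavenger receptors, the mannose receptor (*Mrc1*) takes up glycoproteins, and CD163 takes up hemoglobin bound to haptoglobin. The product of *Vsig4* is a complement receptor best known from Kupffer cells of the liver. CD5L, also called AIM, is a secreted scavenger protein and not a membrane receptor.

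The sequence upstream of the first transcribed base was matched for 6 of the 8 genes in RefSeq (GRCm38.p6), all but *Siglec1* and *Msr1*. Positions -250 to -31, counted from that base, are shown for *Timd4*, *Marco* and *Mrc1*, the genes tested whose values were lower in all 6 *NrasQ61K* libraries than in any WT library, and for *Cd5l*, whose mean was higher. Capitals mark GAGGAA, the core of the site of the macrophage factor PU.1, TGCTGA, an arm of the site of MAF factors, and AGGTCA, an arm of the site of nuclear receptors, each on either strand. The windows lie at chr11:46810549-46810768 on the plus strand for *Timd4*, chr1:120505055-120505274 on the minus strand for *Marco*, chr2:14229164-14229383 on the plus strand for *Mrc1* and chr3:87357631-87357850 on the plus strand for *Cd5l*.
Timd4: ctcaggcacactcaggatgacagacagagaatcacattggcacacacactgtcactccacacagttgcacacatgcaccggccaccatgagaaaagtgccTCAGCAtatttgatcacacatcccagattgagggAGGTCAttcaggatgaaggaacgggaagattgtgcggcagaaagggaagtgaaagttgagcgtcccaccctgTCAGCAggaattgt
Marco: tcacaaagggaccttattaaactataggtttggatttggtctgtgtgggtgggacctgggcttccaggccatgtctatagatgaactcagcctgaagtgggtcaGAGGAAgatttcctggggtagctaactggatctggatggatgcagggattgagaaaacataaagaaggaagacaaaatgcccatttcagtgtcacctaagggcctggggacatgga
Mrc1: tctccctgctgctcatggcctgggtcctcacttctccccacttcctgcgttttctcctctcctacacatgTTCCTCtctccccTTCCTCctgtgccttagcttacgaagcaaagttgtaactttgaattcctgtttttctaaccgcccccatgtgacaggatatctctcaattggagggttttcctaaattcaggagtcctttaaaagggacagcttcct
Cd5l: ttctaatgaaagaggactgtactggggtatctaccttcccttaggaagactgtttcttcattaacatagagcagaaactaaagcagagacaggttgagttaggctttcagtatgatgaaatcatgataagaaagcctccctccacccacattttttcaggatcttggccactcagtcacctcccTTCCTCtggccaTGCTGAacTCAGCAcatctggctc
GAGGAA or its complement was found in the windows of *Marco*, *Mrc1*, *Cd5l* and *Vsig4*, and in 20.4% of all 32851 windows of this length. TGCTGA was found in those of *Timd4* and *Cd5l*, and in 14.4% of all windows, and AGGTCA in that of *Timd4* and in 12.5% of all windows. The *Cd163* window held none of these letters. In *Cd5l* both arms of the MAF site stood 2 bases apart, at positions -54 to -41, as TGCTGANNTCAGCA. This palindrome, searched for only after the window had been read, occurred in 2 of the 32851 windows. These matches are a description of the letters only. No motif was shared by the windows of *Timd4*, *Marco* and *Mrc1*.

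Expression was deposited as FPKM, fragments normalized to transcript length and to the number of mapped fragments, so levels can be compared between genes per length. Read numbers were not used here, and a depth of 6140000 to 12900000 fragments was estimated for 8 libraries from the smallest values of genes with 1 exon. On the first principal component, replicate 2 of MHCII-KO (78.59) and replicate 2 of *Tyr-NrasQ61K* (101.9) lay outside the range of the rest, -74.14 to 21.77. With 6870000 and 6140000 fragments, they also had the smallest depth estimates. On the second component, replicate 3 of *Tyr-NrasQ61K*, the library whose depth could not be estimated, was at -99.95, where the rest were at -12.88 to 35. The summed FPKM of 9 B cell genes was 699.9 to 2590 in the *NrasQ61K* libraries and 1348 to 2703 in WT. *Dct*, a melanocyte gene, was at 0.85 to 5.81 FPKM in the *NrasQ61K* libraries and at 0 to 0.05 FPKM in WT. *Nras* did not separate the groups, at 5.55 to 14.5 FPKM in the *NrasQ61K* libraries and 10.3 to 14.7 FPKM in WT. In the MHCII-KO libraries *H2-Ab1* remained at 108 to 271 FPKM, against 149 to 276 FPKM in *Tyr-NrasQ61K* and 101 to 183 FPKM in WT.

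The engulfment receptors *Timd4* and *Marco* were the most abundant of the 8 genes in WT lymph nodes and had the lowest ratios to WT among those tested. *Timd4* (ENSMUSG00000055546, chr11:46810800-46844332, mm10, plus strand) was at 10.1, 2.15 and 14.4 FPKM in MHCII-KO, at 11.8, 2.77 and 9.52 FPKM in *Tyr-NrasQ61K*, and at 98.3, 41.9 and 97.2 FPKM in WT lymph nodes. Every *NrasQ61K* library lay below the lowest WT library, and within each group replicate 2 was the lowest. The mean of the 6 *NrasQ61K* libraries was 8.44 ± 4.93 FPKM against 79.1 ± 32.2 FPKM in the 3 WT libraries (SD), a 9.38-fold lower level. On the scale of log2(FPKM + 1) the difference was -3.22 ± 0.60 (SE), with an unadjusted p of 0.000563 and an adjusted p of 0.0791 by limma over all genes tested, which missed the threshold of 0.05. *Marco* (ENSMUSG00000026390, chr1:120474538-120505024, minus strand) was at 23.6, 13.9 and 40.0 FPKM in MHCII-KO, at 22.9, 19.6 and 24.2 FPKM in *Tyr-NrasQ61K*, and at 130, 51.8 and 142 FPKM in WT. The groups again did not overlap, although MHCII-KO replicate 3 and WT replicate 2 came within 11.7 FPKM of each other. Its mean was 24.03 ± 8.71 FPKM in the *NrasQ61K* libraries and 108 ± 48.9 FPKM in WT (SD, n = 6 and 3), and the log2 difference was -2.06 ± 0.41 (limma, unadjusted p = 0.000879, adjusted p = 0.0918). Without *Tyr-NrasQ61K* replicate 3, the log2 difference was -3.32 for *Timd4* and -2.09 for *Marco* (limma, adjusted p of 0.0992 and 0.117). FPKM is a share of all fragments, and the study describes the *Tyr-NrasQ61K* nodes as enlarged, with more nonmelanocyte cells. In bulk tissue, fewer macrophages, a smaller share of macrophages among more other cells, and less RNA per macrophage cannot be told apart.

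**Figure D1:**
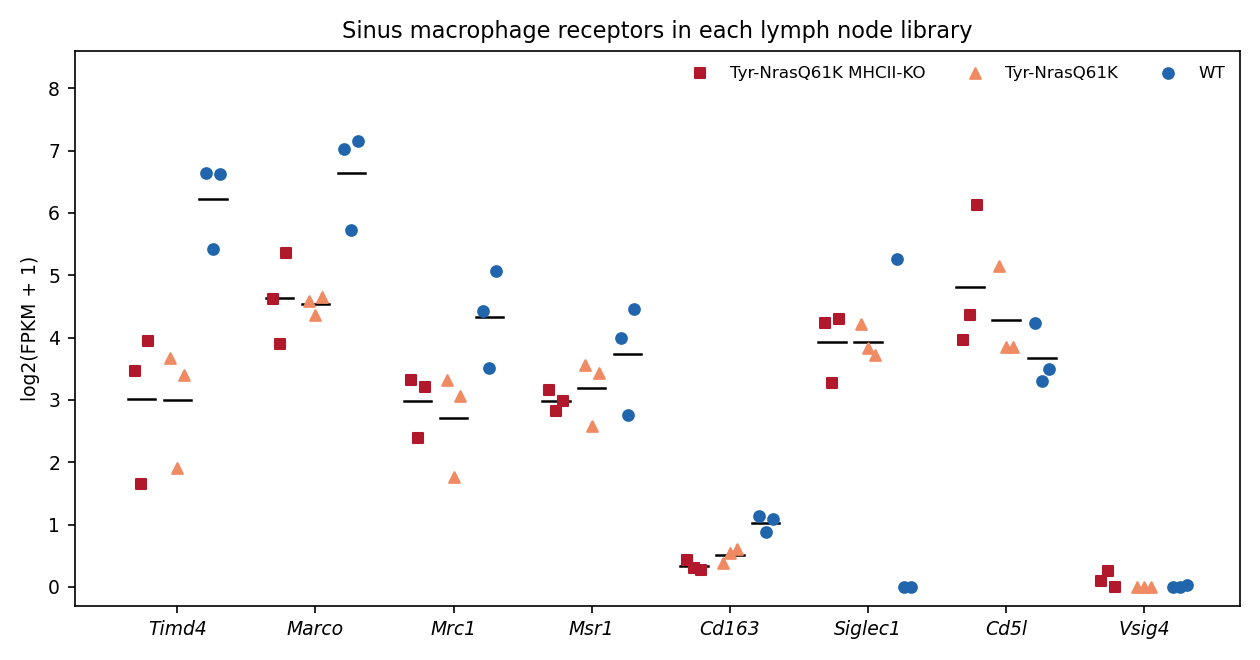
Level of the 8 genes in each library, as log2(FPKM + 1), with MHCII-KO left, *Tyr-NrasQ61K* in the middle and WT right. Points are libraries and bars are group means, not drawn where a library is listed at 0. The *Timd4* values of all 6 *NrasQ61K* libraries, at 2.15 to 14.4 FPKM, sit below the WT values of 41.9 to 98.3 FPKM.

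The mannose receptor gene *Mrc1* (ENSMUSG00000026712, chr2:14229392-14332057, plus strand) was at 9.01, 4.26 and 8.27 FPKM in MHCII-KO, at 8.94, 2.39 and 7.37 FPKM in *Tyr-NrasQ61K*, and at 20.4, 10.4 and 32.6 FPKM in WT. The highest *NrasQ61K* value and the lowest WT value differed by 1.37 FPKM, less than the spread within any group. The log2 difference of both *NrasQ61K* groups from WT was -1.49 ± 0.45 (limma, unadjusted p = 0.0102, adjusted p = 0.185). *Msr1* (ENSMUSG00000025044, chr8:39581685-39642673, minus strand), the other class A scavenger receptor, did not separate the groups, at 7.95, 6.08 and 6.86 FPKM in MHCII-KO, 10.8, 4.99 and 9.80 FPKM in *Tyr-NrasQ61K* and 15.0, 5.79 and 20.98 FPKM in WT. WT replicate 2 fell among the *NrasQ61K* libraries, and the log2 difference of -0.65 had a 95% interval of -1.52 to 0.22 (limma, adjusted p = 0.319).

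The hemoglobin receptor gene *Cd163* (ENSMUSG00000008845, chr6:124304656-124330527, plus strand) was low and did not pass the filter, which asked for 1 FPKM in 3 libraries. It was at 0.345, 0.236 and 0.201 FPKM in MHCII-KO, at 0.304, 0.452 and 0.527 FPKM in *Tyr-NrasQ61K*, and at 1.19, 0.838 and 1.13 FPKM in WT, without overlap between WT and either *NrasQ61K* group. A fit without the filter gave a log2 difference of -0.61 for both *NrasQ61K* groups against WT (limma, adjusted p = 0.0746), on a scale that understates changes at this level. *Vsig4* (ENSMUSG00000044206, chrX:96247203-96293438, minus strand) also failed the filter. It was listed at 0 in 6 libraries, at 0.063 and 0.193 FPKM in MHCII-KO replicates 1 and 2, and at 0.026 FPKM in WT replicate 3. *Clec4f*, another Kupffer cell receptor, named after its values were seen, was listed at 0 in all 9 libraries.

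*Siglec1* (ENSMUSG00000027322, chr2:131069220-131086765, minus strand), which encodes the sialic acid receptor CD169, was at 17.9, 8.63 and 18.6 FPKM in MHCII-KO and at 17.5, 13.3 and 12.2 FPKM in *Tyr-NrasQ61K*. In WT it was at 37.3 FPKM in replicate 1 and was listed at 0 in replicates 2 and 3. The only WT library with a value was thus above all 6 *NrasQ61K* libraries, and the other WT libraries were below them. An exact 0 in such a table can be a failed estimate, and a gene expressed broadly showed the same form: *Unc93b1*, needed for Toll-like receptor traffic, was listed at 0 in WT replicate 1 and at 50.1 to 74.3 FPKM in the other 8 libraries. *Lyst*, the lysosomal trafficking regulator, was listed at 0 in *Tyr-NrasQ61K* replicate 1 and MHCII-KO replicate 3, and at 12.8 to 23.2 FPKM elsewhere. Both were picked out after their values were seen. No fold change or mean against WT is given for *Siglec1*, and no direction can be read from these values.

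*Cd5l* (ENSMUSG00000015854, chr3:87357881-87371073, plus strand) was the gene with the highest mean of the 8 in MHCII-KO lymph nodes, a rank that rested on replicate 3, and its groups overlapped. Without that replicate its MHCII-KO mean was 17.06 FPKM, below the 18.78 FPKM of *Marco*. It was at 14.6, 19.5 and 68.5 FPKM in MHCII-KO, at 34.4, 13.4 and 13.4 FPKM in *Tyr-NrasQ61K*, and at 17.8, 8.88 and 10.3 FPKM in WT. The highest values came from MHCII-KO replicate 3 and *Tyr-NrasQ61K* replicate 1. The log2 difference of both *NrasQ61K* groups from WT was 0.87, with a 95% interval of -0.32 to 2.07 (limma, adjusted p = 0.327).

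None of the 6 genes tested passed an adjusted p of 0.05 in any comparison. For *Tyr-NrasQ61K* against WT, limma called 0 of 6, where 0.0723% of the 16587 genes tested were called lower and 0.163% higher. At an unadjusted p under 0.05, 3 of 6 were lower, against 8.43% of all genes lower, and for the same 3, *Timd4*, *Marco* and *Mrc1*, the libraries did not overlap, against 10.5% of all genes. For *Tyr-NrasQ61K* MHCII-KO against WT, 0 of 6 were called, beside 0.0663% of all genes called lower and 0.0784% higher. Again 3 of 6 were lower at an unadjusted p under 0.05 and without overlap, against 11.5% and 23.4% of all genes. For both *NrasQ61K* groups against WT the counts were 0 called and 3 lower at an unadjusted p under 0.05 and without overlap, beside 0.193% called lower, 0.205% called higher, 15.2% lower and 6.52% higher with such a p and 8.44% lower without overlap. These comparisons share the 3 WT libraries. Because the genes were chosen with earlier results of these data known, their counts beside those of all genes are descriptions only. With the test restricted to protein-coding genes, *Timd4* and *Marco* passed the threshold for both *NrasQ61K* groups against WT, with adjusted p of 0.00837 and 0.014 by limma. That setting called 1.66% of the 11902 genes tested lower and 0.639% higher. *Timd4* and *Marco* each passed the threshold in 5 of 18 alternative settings for this comparison. Those settings called 0.464% to 36.2% of the genes tested lower and 0.428% to 9.31% higher, with the largest shares where libraries were weighted.

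*Siglec1*, whose fitted difference rests on 2 values listed at 0, was left out of the median. The median log2 difference of the other 5 genes from WT was -1.36 in MHCII-KO and -1.62 in *Tyr-NrasQ61K*, where the medians of all genes tested were -0.22 and -0.12. Per group, the log2 difference of *Timd4* from WT was -3.20 in MHCII-KO (adjusted p = 0.201) and -3.23 in *Tyr-NrasQ61K* (adjusted p = 0.152), each with an SE of 0.69. For *Marco* it was -2.01 in MHCII-KO (adjusted p = 0.226) and -2.11 in *Tyr-NrasQ61K* (adjusted p = 0.163), each with an SE of 0.47. For *Mrc1* it was -1.36 in MHCII-KO (adjusted p = 0.329) and -1.62 in *Tyr-NrasQ61K* (adjusted p = 0.275), each with an SE of 0.52. All are limma values adjusted over all genes tested.

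**Figure D2:**
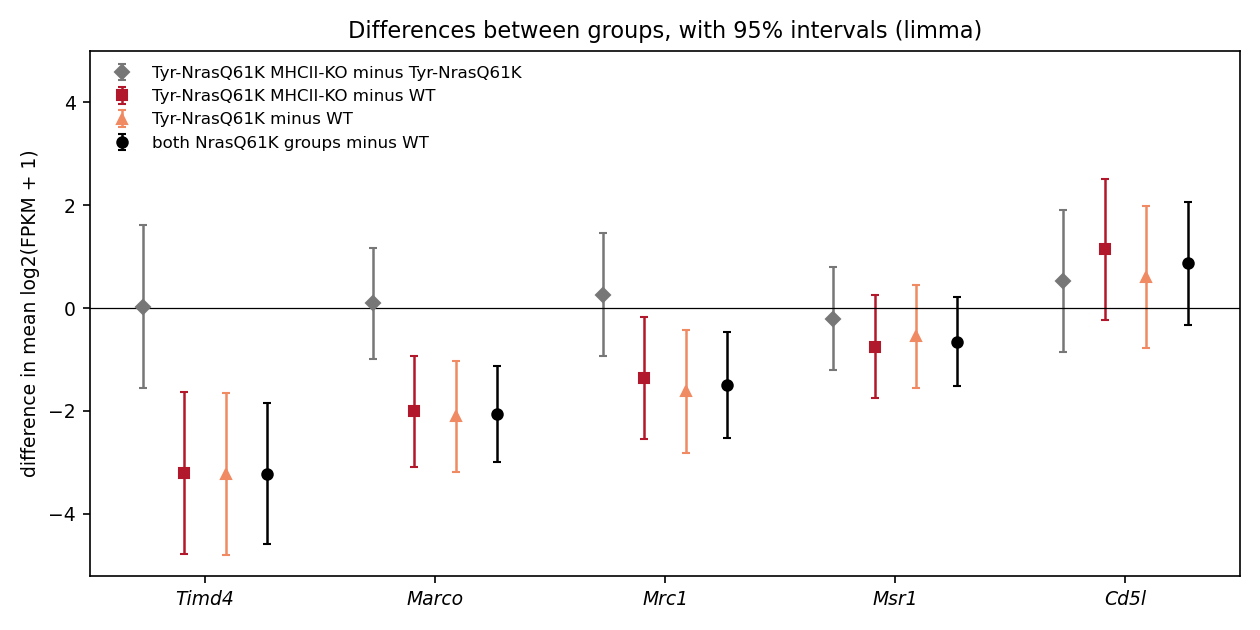
Difference in mean log2(FPKM + 1) for the 5 genes tested that had a value above 0 in every library, with 95% intervals from limma. Grey diamonds are MHCII-KO minus *Tyr-NrasQ61K*, red squares MHCII-KO minus WT, orange triangles *Tyr-NrasQ61K* minus WT and black circles both *NrasQ61K* groups minus WT. For *Timd4* the interval of the last is -4.58 to -1.85.

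The loss of MHC class II, as labelled, was addressed by comparing the *NrasQ61K* groups with each other. No gene of the 6 was called for MHCII-KO against *Tyr-NrasQ61K*, none had an unadjusted p under 0.05 by limma, and none separated the groups, where 0.0362% of all genes tested were called lower and 0.0121% higher, 1.28% were lower and 0.235% higher at such a p, and 3.07% were lower and 0.729% higher without overlap. The log2 difference of *Timd4* was 0.03 with a 95% interval of -1.55 to 1.61, and that of *Marco* was 0.10 with an interval of -0.98 to 1.18. For *Mrc1* it was 0.26, with an interval of -0.93 to 1.45. For *Cd5l* it was 0.53, with an interval of -0.85 to 1.91, and for *Msr1* -0.20, with an interval of -1.21 to 0.80. Each of these 5 intervals reached past 1 on the log2 scale in at least 1 direction.

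*Csf1r*, the receptor for the growth factor that macrophages depend on, was used to set each level against that of a general macrophage gene. It was itself at 21.8 to 41.1 FPKM in the 6 *NrasQ61K* libraries and at 33.3 to 66.2 FPKM in WT, with overlap, and its log2 difference was -0.86 (limma, adjusted p = 0.203). The ratio of *Timd4* to *Csf1r* was 0.378, 0.0987 and 0.349 in MHCII-KO, 0.371, 0.119 and 0.329 in *Tyr-NrasQ61K*, and 1.54, 1.26 and 1.47 in WT. WT replicate 2, which had the lowest *Timd4* and *Csf1r* of the WT libraries, was close to the other WT libraries by this ratio. The ratio of *Marco* to *Csf1r* was 0.833 ± 0.173 in MHCII-KO, 0.799 ± 0.0674 in *Tyr-NrasQ61K* and 1.91 ± 0.314 in WT (SD, n = 3 each), without overlap between WT and the others.

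The ratio of *Cd5l* to *Csf1r* was 0.548, 0.894 and 1.67 in MHCII-KO, 1.09, 0.577 and 0.462 in *Tyr-NrasQ61K*, and 0.279, 0.266 and 0.155 in WT, so that every *NrasQ61K* library was above every WT library. The ratios of *Mrc1* and *Msr1* overlapped between the groups, at 0.103 to 0.337 in the *NrasQ61K* libraries and 0.311 to 0.492 in WT for *Mrc1*, and at 0.167 to 0.34 in the *NrasQ61K* libraries and 0.174 to 0.317 in WT for *Msr1*. The ratio of *Siglec1* in WT replicate 1, 0.587, lay within the 0.396 to 0.67 of the *NrasQ61K* libraries. Divided by *Adgre1*, which encodes the macrophage marker F4/80, *Timd4* was at 0.36 to 1.57 in the *NrasQ61K* libraries and at 5.5 to 6.13 in WT. The same ratio for *Cd5l* was 1.82 to 6.46 in the *NrasQ61K* libraries and 0.611 to 1.17 in WT. The ratio of *Marco* to *Adgre1* reached 6.21 in *Tyr-NrasQ61K* replicate 2, just under the lowest WT value of 6.79. These ratios are descriptions and were not tested.

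**Figure D3:**
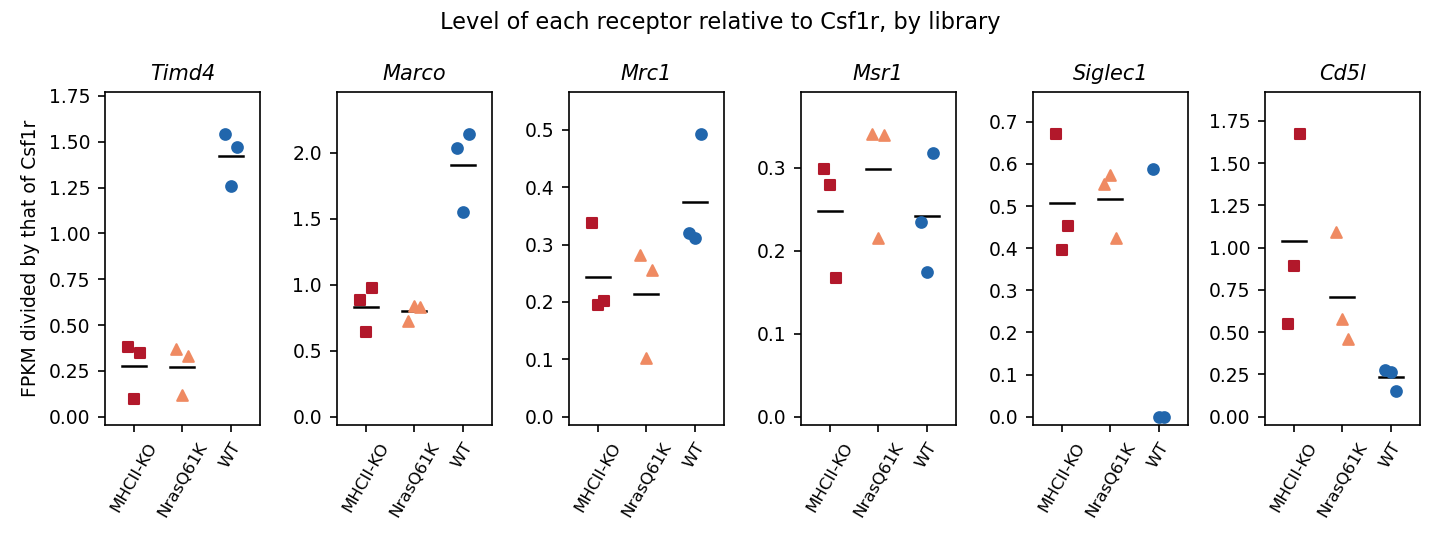
FPKM of 6 genes divided by that of *Csf1r* in the same library, with MHCII-KO left, *Tyr-NrasQ61K* in the middle and WT right in each panel. Points are libraries and bars are group means, not drawn where a library is listed at 0, and each panel has its own scale. *Timd4* and *Marco* are lower and *Cd5l* is higher in every *NrasQ61K* library than in WT, with *Cd5l* ratios of 0.462 to 1.67 against 0.155 to 0.279.

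The order of the levels, in FPKM and thus per length, differed between the groups. In MHCII-KO the order of the means was *Cd5l* (34.2 ± 29.8 FPKM), *Marco* (25.9 ± 13.2), *Siglec1* (15.1 ± 5.58), *Timd4* (8.86 ± 6.19), *Mrc1* (7.18 ± 2.56) and *Msr1* (6.96 ± 0.935), where the means ± SD of all neighbours overlapped. In *Tyr-NrasQ61K* it was *Marco* (22.2 ± 2.37 FPKM), *Cd5l* (20.4 ± 12.2), *Siglec1* (14.4 ± 2.79), *Msr1* (8.53 ± 3.10), *Timd4* (8.02 ± 4.68) and *Mrc1* (6.23 ± 3.42), and those of all neighbours overlapped again. In WT it was *Marco* (108 ± 48.9 FPKM), *Timd4* (79.1 ± 32.2), *Mrc1* (21.1 ± 11.1), *Msr1* (13.9 ± 7.65) and *Cd5l* (12.3 ± 4.77), with *Siglec1* left out for its values listed at 0 (SD, n = 3). There *Timd4* and *Mrc1* were the only neighbours without overlap, and *Cd163* and *Vsig4* came last in every group.

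Other surface receptors and lectins of tissue macrophages were next compared, from a list of 12, of which 11 were tested. Of these, *Cd209f* and *Cd209g* passed the filter only through the 3 WT libraries, so that a lower value in the *NrasQ61K* libraries was a condition of their being tested. Among the other 9, 0 were called by limma for both *NrasQ61K* groups against WT, beside 0.193% of all genes called lower and 0.205% higher. At an unadjusted p under 0.05, 4 of the 9 were lower and 1 was higher, beside 15.2% and 6.52% of all genes, and their median log2 difference was -0.89, against -0.16 for all genes tested. *Cd209f*, a mouse relative of DC-SIGN, was at 0.597, 0.77 and 0.255 FPKM in MHCII-KO, 0.492, 0.356 and 0.213 FPKM in *Tyr-NrasQ61K* and 4.98, 3.62 and 15.3 FPKM in WT, and its log2 difference of -2.42 (limma, adjusted p = 0.0396) is given as a description only. Its relative *Cd209b*, also called SIGNR1 and known on marginal zone and medullary macrophages, was at 30.7 to 88.9 FPKM in the *NrasQ61K* libraries and 105 to 236 FPKM in WT, a log2 difference of -1.53 (adjusted p = 0.168). *Cd209d* had a log2 difference of -2.44 (adjusted p = 0.123), and *Cd209g* was at 0.125 to 0.393 FPKM in the *NrasQ61K* libraries and 1.83 to 6.90 FPKM in WT. Members of the *Cd209* family resemble each other in sequence, so that reads may have been divided among them. *Folr2*, a folate receptor of resident macrophages, was at 0.94 to 4.99 FPKM in the *NrasQ61K* libraries and 11.6 to 35.2 FPKM in WT, a log2 difference of -2.67 (limma, adjusted p = 0.061).

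Of 12 other scavenger receptor genes tested, from a list of 14, none was called for both *NrasQ61K* groups against WT by limma. At an unadjusted p under 0.05, 2 of the 12 were lower, or 16.7%, beside 15.2% of all genes, and 1 was higher, beside 6.52%, so that nothing is read from these counts. The median log2 difference was -0.19. The lower genes at that level were *Cd36*, a receptor for oxidized lipids, with a log2 difference of -1.24 (adjusted p = 0.222), and *Stab2*, a hyaluronan receptor of sinus endothelium, with -0.79 (adjusted p = 0.225). The higher one was *Lrp1*, an endocytic receptor, at 21.9 to 36.4 FPKM in the *NrasQ61K* libraries and 11.2 to 18.8 FPKM in WT (log2 difference 0.90, adjusted p = 0.162). *Scarb1*, the receptor for high-density lipoprotein, had a log2 difference of -0.03.

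**Figure D4:**
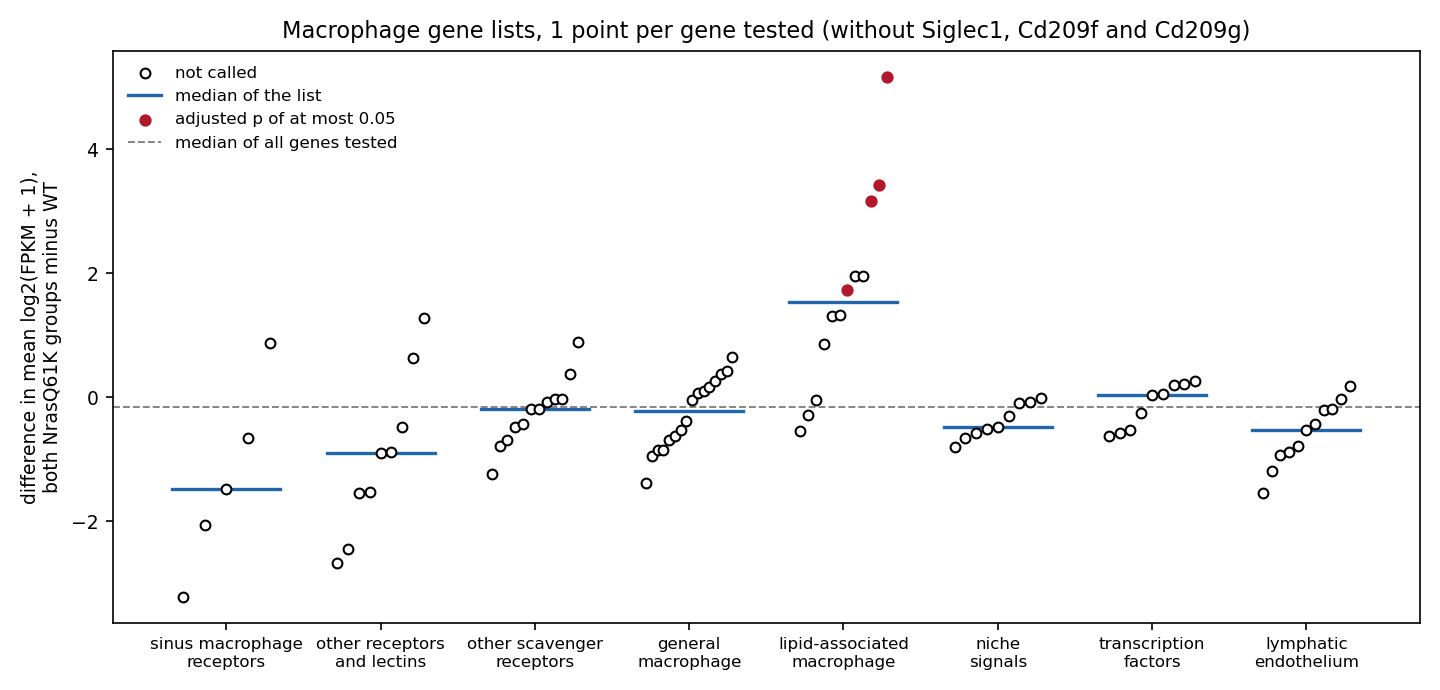
Difference in mean log2(FPKM + 1) between both *NrasQ61K* groups and WT for each gene tested in 8 lists. Filled red points passed an adjusted p of 0.05 by limma, *Siglec1*, *Cd209f* and *Cd209g* are left out, blue lines are the medians of the lists and the dashed line is the median of all genes tested, -0.16. Points lie mostly below the dashed line for sinus macrophage receptors, other receptors and lectins, niche signals and lymphatic endothelium. They lie mostly above it for lipid-associated macrophages and transcription factors.

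General macrophage genes had a median close to that of all genes. Of 16 tested, 0 were called for both *NrasQ61K* groups against WT by limma, 5 were lower and 1 higher at an unadjusted p under 0.05, beside 15.2% and 6.52% of all genes, and the median log2 difference was -0.22. *Itgam*, which encodes CD11b, had a log2 difference of -1.38 (adjusted p = 0.18) and *Adgre1* -0.85 (adjusted p = 0.225). The higher one was *Mertk*, an engulfment receptor kinase, named after its values were seen, with a log2 difference of 0.65 (adjusted p = 0.222). Genes of lipid-associated macrophages had a median log2 difference of 1.53, with 4 of 12 called higher and 0 lower, beside 0.205% and 0.193% of all genes. The called genes were *Gpnmb*, *Trem2*, *Mmp12* and *Atp6v0d2*, the last named after its values were seen. *Trem2*, a lipid receptor, was at 16.9 to 26.6 FPKM in the *NrasQ61K* libraries and 0.38 to 2.08 FPKM in WT (log2 difference 3.42, adjusted p = 0.00162). *Gpnmb*, which melanocytes also express, was at 96.4 to 204 FPKM in the *NrasQ61K* libraries and 1.57 to 4.23 FPKM in WT (log2 difference 5.17, adjusted p = 0.000385). *Mmp12*, a macrophage elastase, and *Atp6v0d2*, a proton pump subunit, had log2 differences of 1.73 and 3.16, and each passed the threshold in 9 of 18 alternative settings.

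Signals on which sinus macrophages depend were followed in a list of growth factors and lymphotoxin pathway genes. Of 9 tested, all had a log2 difference below 0 for both *NrasQ61K* groups against WT, as did 63.5% of all genes, and 0 were called by limma, with 4 of 9 lower at an unadjusted p under 0.05, beside 15.2% of all genes, and a median of -0.49. *Csf1* and *Tnfsf11*, which encodes RANKL, had log2 differences of -0.65 and -0.80 (adjusted p of 0.214 and 0.216). *Il34*, another ligand of the receptor encoded by *Csf1r*, had a log2 difference of -0.10. Of 9 transcription factors of resident macrophages tested, 0 were called by limma, 2 were lower at an unadjusted p under 0.05, or 22.2% beside 15.2% of all genes, and the median log2 difference was 0.03. *Spic*, a factor of red pulp macrophages, was at 7.79 to 16 FPKM in the *NrasQ61K* libraries and 9.2 to 20.3 FPKM in WT. *Nr1h3*, which encodes the oxysterol receptor LXR-alpha, had a log2 difference of 0.06.

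Markers of other cells in the node were counted for the same comparison, in which 8.44% of all genes were lower without overlap. By limma, 0.193% were called lower and 0.205% higher, and 15.2% were lower and 6.52% higher at an unadjusted p under 0.05. Of 8 adipocyte genes, *Lep* passed the filter only through the 3 WT libraries, and the other 7 were all lower at such a p. Over all 8, 7 were lower without overlap, a count that includes *Lep*. The summed FPKM of the list was 42.7 to 187 in the *NrasQ61K* libraries and 277 to 511 in WT. The called genes were *Plin1* and *Lep*, the call of *Lep* being a description only. Without *Lep* the median log2 difference was -1.65 over 7 genes. *Adipoq* averaged 5.06 and 4.19 FPKM in MHCII-KO and *Tyr-NrasQ61K* and 27.99 FPKM in WT. Within WT, replicate 2 had the highest adipocyte sum and the lowest *Timd4*, *Marco* and *Mrc1*. Of 10 dendritic cell genes, 7 were lower at such a p and 4 without overlap, with 1 called lower, the chemokine *Ccl17*, and a median of -0.84. Of 11 lymphatic endothelial genes, 0 were called and 4 were lower at such a p, with a median of -0.52, and their summed FPKM was 96.1 to 169 in the *NrasQ61K* libraries and 140 to 302 in WT. Of 5 melanocyte genes, *Dct*, *Pmel* and *Mlana* passed the filter only through the *NrasQ61K* libraries, so that the call of *Dct* as higher is a description, and the other 2 had 0 calls and 0 with such a p. Among 9 T cell genes, 0 were called, with 4 lower and 1 higher at such a p and a median of -0.54. The counts at such a p were 1 of 8 lower for monocytes and neutrophils (median -0.51), 1 of 9 lower for B cells (median -0.11), and 1 lower and 2 higher of 6 for handling and stress (median -0.23), with 0 called in each. The part of these markers in the values of *Timd4*, *Marco* and *Mrc1* was not tested. Several genes stand on more than 1 list, among them *Cd68*, *Maf*, *Lyve1*, *Stab1* and *Stab2*.

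The genes whose profiles over the 9 libraries were nearest to each of the 6 genes tested were found by the root mean square difference between log2(FPKM + 1) profiles, each centred on its mean. Nearest to *Timd4* were *Folr2* at 0.46 and *Il22ra2*, a soluble receptor for interleukin 22, at 0.464. Nearest to *Marco* were *Cd300lh* at 0.266 and *Cd209b* at 0.321. Near *Mrc1* was the chemokine receptor gene *Cxcr6* at 0.189, and nearest to *Msr1* were *H2-Ke2* at 0.166 and *Ms4a4d* at 0.179. Those of *Cd5l* were *Fam46c* at 0.44 and *Sdc1*, which encodes the plasma cell marker syndecan-1, at 0.459. *Sdc1*, like *Cd5l*, was highest in MHCII-KO replicate 3, at 19.4 FPKM, against 5.05 to 13.4 FPKM in the other libraries. *Siglec1* had no close neighbour, the nearest being the immunoglobulin genes *Ighv5-4* at 0.948 and *Ighv6-6* at 0.996.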

How the data were processed

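RNA from 9 mouse lymph node libraries was sequenced on a single flow cell of a Genome Analyzer IIx. The FPKM values were deposited by the authors as 1 table, and per the labels were made with TopHat, Cufflinks and Cuffdiff on mm10. The sources used here give no versions and no gene annotation for these steps. No Cuffdiff comparison of the authors was analysed here. Of 37819 entries, 18 with several values per library were left out. Genes with at least 1 FPKM in at least 3 libraries, 16587 in all, were tested as log2(FPKM + 1), with a pseudocount of 1, by limma 3.58.1 in R 4.3.3, fitting a mean per group, with moderated variances with a trend, no term for replicate number, and Benjamini-Hochberg adjustment over all genes tested. Fold changes on this scale understate the change of low genes. The pipeline was tested on simulated data. Gene coordinates came from GENCODE M21 and promoters from RefSeq (GRCm38.p6). Python 3.11.15, pandas 2.3.3, numpy 2.4.6 and matplotlib 3.10.9 were used for tables and plots.

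The 8 genes and all lists were chosen with earlier results of these data known. The lists held other scavenger receptors, other receptors and lectins, general and lipid-associated macrophage genes, niche signals, transcription factors, and markers of lymphatic endothelium, monocytes and neutrophils, dendritic cells, T cells, B cells, adipocytes, melanocytes and stress. Genes named were the 8, up to 3 per list with the smallest unadjusted p for both NrasQ61K groups against WT plus the first 2 of each list, Nras, Dct and MHC class II genes, and the 2 nearest profiles for each gene tested, of which 1 is not reported here. The alternatives were another pseudocount, no filter, 2 other normalizations, a replicate block, library weights, protein-coding genes only, only the groups compared, and leaving out each library or the 2 that stood apart on the first principal component.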

Additional observations from a re-analysis of the deposited data

How the results depend on the processing

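The differences of *Timd4*, *Marco*, *Mrc1*, *Msr1* and *Cd5l* from WT kept their direction in all 18 alternative settings, in each of the 3 comparisons with WT, and no direction is read for *Siglec1*. The number of genes called did not. For both NrasQ61K groups against WT it was 0 as reported and 2 with quantile normalization, 2 after median-ratio scaling, 2 with protein-coding genes only and 5 with library weights, of which 4 were lower and *Cd5l* was higher. For *Tyr-NrasQ61K* against WT it was 2 with protein-coding genes only, beside 0.58% of all genes called lower and 0.302% higher. With library weights it was 3, beside 24.5% lower and 6.07% higher. For MHCII-KO against WT it was 2 with protein-coding genes only, beside 0.613% lower and 0.294% higher. With library weights it was 5, beside 34.7% lower and 9.94% higher. Leaving out 1 library at a time gave 0 to 1 in each comparison with WT, the 1 being *Siglec1* without WT replicate 1, where both other WT values are listed at 0. The weights ran from 0.197 for *Tyr-NrasQ61K* replicate 2 to 5.22 for MHCII-KO replicate 3. Over all genes, calls for both NrasQ61K groups against WT numbered 32 lower and 34 higher as reported, 102 and 71 with quantile normalization, 77 and 87 after median-ratio scaling, 15 and 36 with a pseudocount of 0.1, 197 and 76 with protein-coding genes only, and 5997 and 1545 with library weights. The calls with library weights were 36.2% of the genes tested lower and 9.31% higher. The median of all genes tested was -0.16 as reported, and 0.03 with median-ratio scaling. The causes of these shifts were not tested.

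Replicate numbers are shared by the groups, and same-numbered libraries correlated at -0.0384 to 0.332 in their deviations from the group means. In 11 of 18 cases a library correlated best, among the 3 libraries of another group, with that of its own number. Replicate 2 had the highest value on the first principal component in each group. The main fit did not take the numbers as pairs, and these values do not settle whether they are. With a replicate block, *Timd4*, *Marco* and *Mrc1* were called lower, 3 genes in each comparison with WT. Over all genes, 2117 were then called lower and 558 higher for both NrasQ61K groups against WT, or 12.8% and 3.36%. The shares were 3.78% lower and 1.61% higher for *Tyr-NrasQ61K* against WT, and 4.02% and 0.669% for MHCII-KO against WT.

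For MHCII-KO against *Tyr-NrasQ61K*, 0 genes of the 6 were called in any setting. Its small differences changed sign with library weights for *Mrc1* (-0.0552), and on leaving out 1 library, over which they ranged from -0.51 to 0.71 for *Timd4*, -0.27 to 0.46 for *Marco*, -0.17 to 0.34 for *Siglec1*, -0.12 to 0.97 for *Cd5l* and -0.21 to 0.56 for *Mrc1*. Without *Tyr-NrasQ61K* replicate 2 and MHCII-KO replicate 2, the log2 difference of *Timd4* between both NrasQ61K groups and WT was -2.60 (limma, adjusted p = 0.0656) and that of *Marco* -1.83 (adjusted p = 0.194). With 3 libraries a group and depth known only as an estimate, levels near or under 1 FPKM, such as those of *Cd163* and *Vsig4*, are poorly measured.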
